A study of Danio rerio with 6 samples.

Results

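Long terminal repeat (LTR) retroelements of zebrafish that the repeat annotation could place only loosely, together with the few families placed in the Copia superfamily, were followed in embryos injected with a morpholino oligonucleotide (MO) against FZNFs, a family of zinc finger genes of cyprinid fish that carry the FiNZ domain. The families were chosen by their annotation labels, as repeats of class LTR whose superfamily field read Gypsy?, LTR or Copia and whose counts summed to at least 10 over all libraries. That gave 104 families among 35218 counted features, of which 2384 were transposable element (TE) families and 875 were LTR families. The label Gypsy? covered 66 families, the bare label LTR covered 31 and Copia covered 7. A further 4 families with these labels held fewer than 10 counts (Copia-25_DR-I, Copia-27_DR-I, Copia4-LTR_DR and Gypsy-245_DR-LTR) and were not followed. The labels and the family names did not always match: 60 of the 66 Gypsy? families carried names beginning with Copia, and the bare LTR label held 19 families named LTR, 6 named ERV, 5 named DIRS and 1 named BEL.

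Wild-type embryos of the Tübingen strain received 4.5 ng of the FZNF MO, a translation blocker designed against the start sites of most but not all FZNFs, or 4.5 ng of a scrambled MO, a mixture of random sequences of the same kind. Whole embryos were pooled at shield stage, 6 h after fertilization, and poly(A) RNA was sequenced in 3 libraries per group, 1 of each group for each of 3 pairs of injections; values of a group are listed below in the order of pairs 1, 2 and 3. Each library is a separate pool of wild-type embryos, and no mutant line was included. Since the FZNF MO blocks translation, transcript counts of its targets do not check the knockdown.

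An LTR retroelement is a block of coding sequence, the internal part, between a pair of LTRs, identical when the copy is made, that carry its promoter and its polyadenylation signal. Its RNA is reverse transcribed and inserted elsewhere in the genome, and recombination between the LTRs of a copy leaves a solo LTR behind, so annotations list the internal part (-I) and the terminal repeat (-LTR) as separate families. Copia elements encode their integrase ahead of the reverse transcriptase and Gypsy elements after it, which separates these superfamilies when coding sequence is intact. The question mark and the bare LTR label are read here as an uncertain or missing superfamily, and the labels give no reason for either. Early fish embryos transcribe many LTR families around the time the zygotic genome is activated, and host zinc finger proteins, histone methylation and DNA methylation are known to silence such elements in vertebrates.

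Consensus fragments were at hand for 43 of the 104 families, from the study's supplementary lists of motif matches. The lists cover predicted motifs of zebrafish and human zinc finger proteins, and shuffled control motifs. A fragment is therefore not necessarily a predicted binding site. Those printed are shared by families that are counted separately, except where another reason is given below. The first fragment, in capitals throughout because the whole stretch is shared, was identical in the terminal repeats of 5 Copia-13 families and in LTR1_DR. All 6 carry the Gypsy? label.
Copia-13_DR-LTR, Copia-13B_DR-LTR, Copia-13D_DR-LTR, Copia-13E_DR-LTR, Copia-13G_DR-LTR and LTR1_DR: CTCTCCCGTCTATTGTCTAGTCCCA

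Internal parts shared stretches too. The fragments of 11 families repeated themselves exactly at a step of between 15 and 30 bases, and several of these tandem units recurred in other families. A tandem unit has no fixed first base, so each is written 5′ to 3′ on the consensus strand from the alphabetically first start, or aligned with the unit it is compared with. Capitals mark the bases at which a unit differs from the first one of its set. Copia-7 and Copia-8 are shown because all their parts had positive fold changes below. That does not set them apart, since both parts were positive in 7 of 15 elements. Copia-26, Copia-23, Copia-6 and Copia2 are shown because they carry matching units, and Copia-13 because it carries near-matching stretches.
Copia-7-I_DR: aatggccgccgcctcctgagcttcctg
Copia-26_DR-I: aatggccgccgcctcctgagcttcctg
Copia-7-I_DR, second unit: aatggccgccgccGcctgagcttcctg
Copia-7-I_DR, other unit: aaCggccgccgccGcctgaActCcctg

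The unit was the same in Copia-7-I_DR and Copia-26_DR-I, and the variants within Copia-7-I_DR differed from it at 1 and 4 bases. A shorter unit joined Copia-7-I_DR to Copia-23_DR-I, whose variant differed at 1 base.
Copia-7-I_DR, short unit: acgctccaggccctccgcagctcc
Copia-23_DR-I: acgctccaggccctccgcagctcc
Copia-23_DR-I, variant: acTctccaggccctccgcagctcc

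The next set joined Copia-6-I_DR, Copia2-I_DR and, with 1 and 2 differing bases, Copia-13_DR-I. The Copia-13_DR-I fragments used were too short to show a tandem repeat. Their stretches were rotated where needed to align with the unit, so a printed line need not be contiguous in the consensus. The last unit was found in Copia-8-I_DR.
Copia-6-I_DR: agagcgcccgccagtgtcggctccagcccc
Copia2-I_DR: agagcgcccgccagtgtcggctccagcccc
Copia-13_DR-I: agagcgcccTccagtgtcggctccagcccc
Copia-13_DR-I, variant: TgagcgcccTccagtgtcggctccagcccc
Copia-8-I_DR: acgccgcagccagcgcctcagccagagccg

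Reads that map to several families were shared out among the candidates by the counting. These stretches are short, and how many reads were shared among these families was not measured.

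Of the 104 families, 79 held enough counts to be tested: 4 with the Copia label, 51 with the Gypsy? label and 24 with the bare LTR label. The 25 that were left out held between 12 and 67 counts in total. A family was called when its adjusted p in edgeR's quasi-likelihood test was under 0.05 and its log2 fold change, FZNF MO over scrambled MO, was at least 0.32 either way. By that rule 1 of 79 families rose and 0 fell, where 5.45% of the 17804 features tested in these embryos were called, 3.27% higher and 2.18% lower. At an unadjusted p under 0.05 in edgeR, 6 families were higher and 4 lower (10.4% and 9.24% of all features tested), and DESeq2 called 0 lower. Fold changes were positive in 44 families and negative in 35, with a median of 0.04 on the log2 scale, against -0.01 over all features tested and 0.04 over all 1947 TE families tested. The 95% interval of a family's log2 fold change reached a median of 0.71 to either side, families with a fold change near 0 left out. A change smaller than that was often not detectable at these counts. These intervals are not adjusted for the number of features tested, so larger changes could also miss a call.

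The other LTR superfamilies showed a different picture in the same fit. Among their 499 tested families 45 rose and 8 fell, and their median log2 fold change was 0.28. The median was 0.34 for the 295 families labelled Gypsy without a question mark, 0.30 for 87 Pao families and 0.04 for 71 ERV1 families. The medians of the loosely labelled families lay near that of ERV1, at 0.05 for the Gypsy? label, -0.04 for the bare LTR label and 0.08 for Copia, as the plot of fold changes by superfamily label shows. These medians are set side by side as a description, and the differences between labels were not tested. Of the 79 tested families followed here, 53 were terminal repeats, with a median of -0.003, and 22 were internal parts, with a median of 0.27. The labels were not matched for the share of internal parts, and its part in the differences was not tested.

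**Figure D1:**
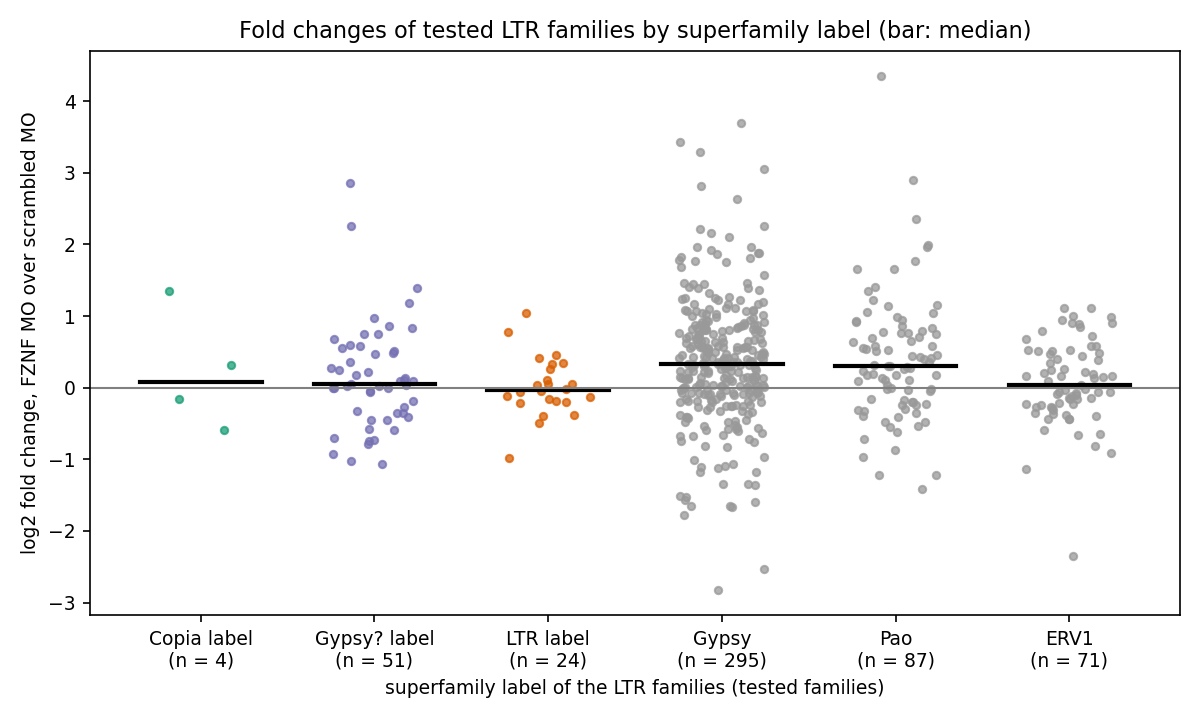
Log2 fold change (FZNF MO over scrambled MO, vertical axis) of each tested LTR family, grouped by superfamily label (horizontal axis, n tested families each), with a black bar at the median. The Copia, Gypsy? and LTR labels (colored) have medians of 0.08, 0.05 and -0.04, against 0.34 for Gypsy, 0.30 for Pao and 0.04 for ERV1 (gray).

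Copia-29_DR-I, the internal part of an element with the Gypsy? label, was the family that rose. Its counts were 79, 93 and 98 with the FZNF MO, against 23, 50 and 36 with the scrambled MO. Scaled for library size (CPM, the normalized count), these were 3.81, 5.81 and 5.88 CPM with the FZNF MO and 1.32, 2.63 and 2.06 CPM with the scrambled MO. Every FZNF MO library lay above every scrambled MO library. The log2 fold change was 1.39 (SE 0.36, 95% interval 0.61 to 2.17), with a Benjamini-Hochberg adjusted p of 0.0447 by edgeR's quasi-likelihood method. The call stood just inside the threshold: it was lost when the pairing was left out of the fit (edgeR adjusted p = 0.236, a fit in which 0.809% of all features were called) and when pair 1, 2 or 3 was left out (edgeR adjusted p = 0.0999, 0.255 and 0.0827, fits in which 3.98%, 0.889% and 12% of all features were called), while the log2 fold change stayed between 1.32 and 1.53. Its terminal repeat, Copia-29_DR-LTR, held 8, 8 and 5 counts with the FZNF MO and 0, 4 and 3 counts with the scrambled MO, too few to be tested. Whole embryos were sequenced, so a change in the number of cells that transcribe a family cannot be told apart from a change in RNA per cell here or at any result that follows.

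Groups that did not overlap in CPM were seen for 6 families with the FZNF MO higher and for 5 with the FZNF MO lower, where 8.47% of all tested features did so in each direction. The higher families include Copia-16_DR-I, which passed the count filter only through the FZNF MO libraries. They also include Copia1-I_DR, whose scrambled MO libraries alone would not have passed it. Among the lower families, the FZNF MO libraries of Copia-9-LTR_DR alone would not have passed it. The lack of overlap of these low-count families is no support for a change, and the tallies are a description. Copia-8-LTR_DR was among the higher ones. This terminal repeat reached 12.6, 13.7 and 14.5 CPM with the FZNF MO, and 8.55, 5.94 and 8.60 CPM with the scrambled MO. The lowest FZNF MO library was above the highest scrambled MO library. Its log2 fold change of 0.84 (SE 0.24) did not pass the test in edgeR (Benjamini-Hochberg adjusted p = 0.0631) and passed in DESeq2 (adjusted p = 0.0392), which called 2 of the 79 families, both higher, against 7.41% of all features called and 4.41% called higher. The internal part, Copia-8-I_DR, had 3.23, 9.50 and 3.06 CPM with the FZNF MO and 2.87, 4.20 and 2.92 CPM with the scrambled MO. FZNF MO replicate 2 stood out, and the other FZNF MO libraries lay inside the range of the scrambled MO libraries (log2 fold change 0.49, SE 0.36, edgeR adjusted p = 0.494). Without pair 2 the log2 fold change was 0.13.

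Copia-7 behaved alike in its parts. The internal part, Copia-7-I_DR, whose tandem units are printed above, had 14.2, 18.6 and 25.2 CPM with the FZNF MO and 8.89, 15.02 and 14.8 CPM with the scrambled MO. The groups overlapped, since FZNF MO replicate 1 lay below scrambled MO replicates 2 and 3, but within each of the 3 pairs the FZNF MO library was the higher (log2 fold change 0.58, SE 0.20, edgeR adjusted p = 0.117). The terminal repeat, Copia-7-LTR_DR, had 7.14, 7.93 and 12.7 CPM with the FZNF MO and 5.11, 6.93 and 7.11 CPM with the scrambled MO. Here the lowest FZNF MO library was marginally above the highest scrambled MO library (log2 fold change 0.51, SE 0.26, edgeR adjusted p = 0.311). Copia-26_DR-I, which shares the unit of Copia-7-I_DR, had a log2 fold change of 0.03 (SE 0.24).

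Copia-15_DR-LTR had 3.71, 5.19 and 14.0 CPM with the FZNF MO and 2.64, 2.78 and 5.04 CPM with the scrambled MO. FZNF MO replicate 3 held most of the counts of its group, and the groups overlapped because FZNF MO replicate 1 lay below scrambled MO replicate 3. The log2 fold change was 0.97 (SE 0.31, edgeR adjusted p = 0.0995), and the sign was positive in 3 of 3 pairs.

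**Figure D2:**
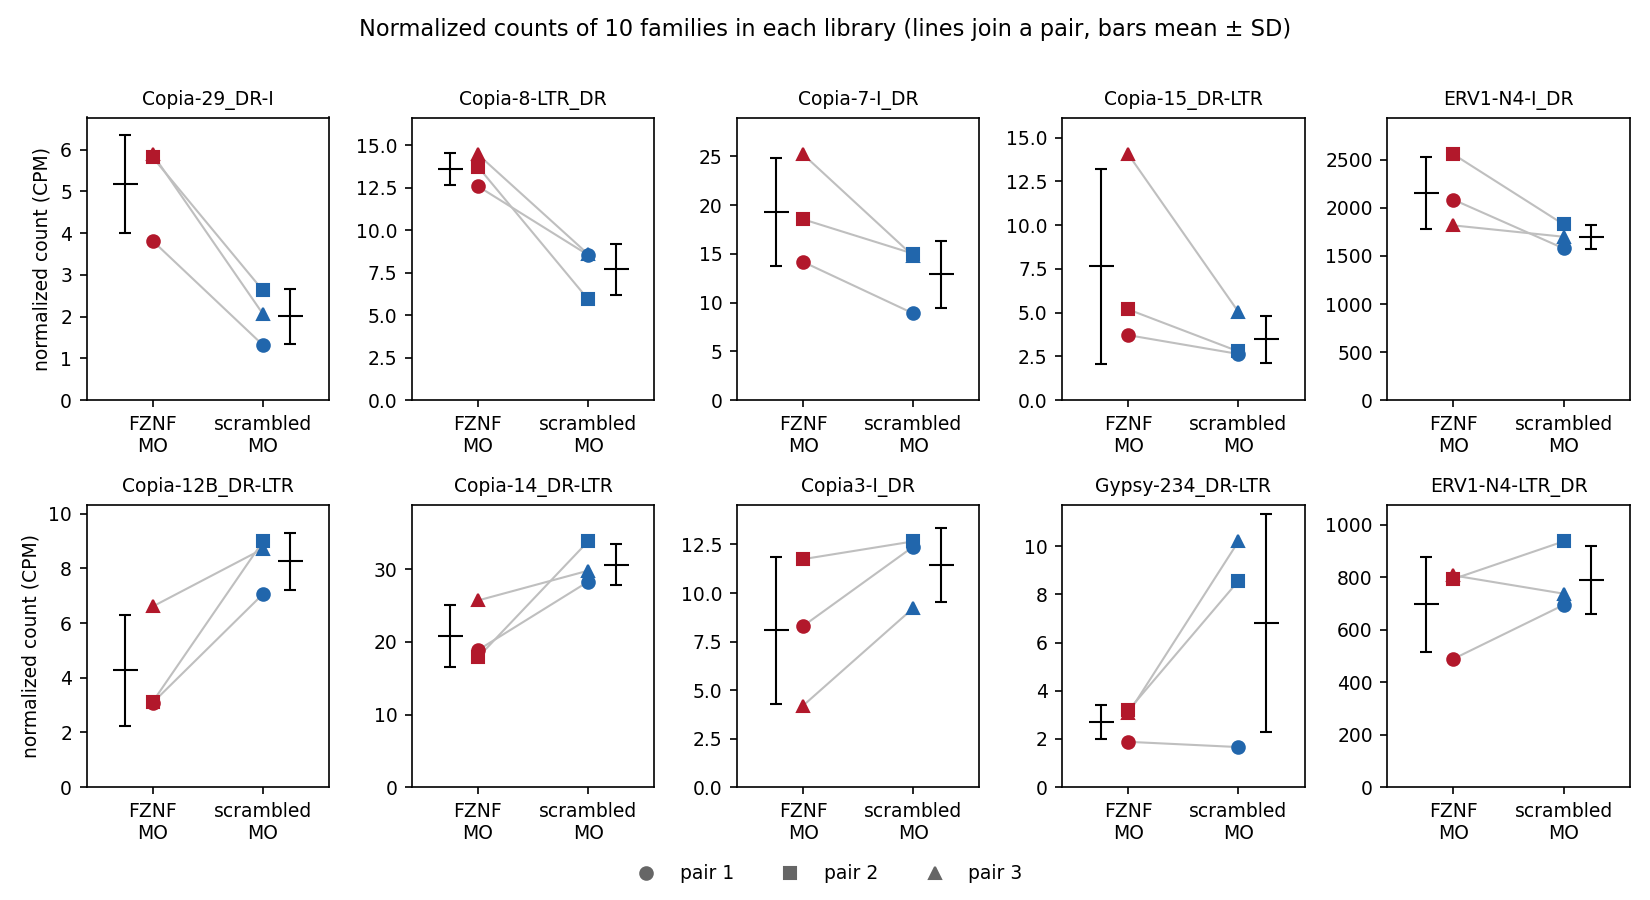
Normalized count (CPM, vertical axis, from 0, a separate scale in each panel) of 10 families in each library, FZNF MO in red and scrambled MO in blue, with lines joining the libraries of a pair and black bars giving mean ± SD (n = 3). Copia-29_DR-I is the family that was called, at 5.17 ± 1.18 CPM with the FZNF MO and 2.003 ± 0.656 CPM with the scrambled MO, and the panels of the lower row include Copia-12B_DR-LTR, where all FZNF MO libraries lie under all scrambled MO libraries.

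Terminal repeats with the Gypsy? label supplied the negative fold changes that came nearest to a call. Copia-12B_DR-LTR had 3.09, 3.12 and 6.60 CPM with the FZNF MO, and 7.06, 8.98 and 8.71 CPM with the scrambled MO. No library of the FZNF MO group reached the lowest of the scrambled MO group, and replicate 3 narrowed the gap. The log2 fold change was -1.03 (SE 0.31, edgeR adjusted p = 0.0786). Copia-14_DR-LTR had 18.9, 17.9 and 25.7 CPM with the FZNF MO and 28.3, 33.8 and 29.8 CPM with the scrambled MO. Again the groups did not overlap, and again pair 3 differed least (log2 fold change -0.57, SE 0.18, edgeR adjusted p = 0.0979). With pair 1, 2 or 3 left out, edgeR's adjusted p was 0.188, 0.545 and 0.0214 for Copia-12B_DR-LTR and 0.174, 0.653 and 0.0220 for Copia-14_DR-LTR, so that among these fits both were called only without pair 3, when 12% of all features were called. Copia-12B_DR-LTR was also called without the count filter, a fit in which 7.47% of all features were called. Copia-11F_DR-LTR (log2 fold change -0.75, SE 0.39) and Copia-12_DR-LTR (log2 fold change -0.60, SE 0.32) were also lower in every FZNF MO library than in any scrambled MO library, with edgeR adjusted p-values of 0.315 and 0.340. Without pair 2 the log2 fold change of Copia-11F_DR-LTR was -0.33.

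The internal part of Copia-14 went the other way at very low counts. Copia-14_DR-I held 34, 13 and 11 counts with the FZNF MO, and 0, 0 and 15 counts with the scrambled MO. The groups overlapped through scrambled MO replicate 3, and the log2 fold change of 2.85 carried an SE of 1.43 (edgeR adjusted p = 0.302). Copia-16_DR-I, singled out after its values were seen, held 12, 13 and 41 counts with the FZNF MO and 7, 0 and 8 counts with the scrambled MO, without overlap in CPM and without passing the test (edgeR adjusted p = 0.248). It passed the count filter only through the FZNF MO libraries, so its lack of overlap is no support for a rise.

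Gypsy-234_DR-LTR, which was also singled out after its values were seen, showed how a single pair could decide a call. It had 1.88, 3.19 and 3.06 CPM with the FZNF MO and 1.66, 8.56 and 10.2 CPM with the scrambled MO. Scrambled MO replicate 1 was as low as the FZNF MO libraries, while scrambled MO replicates 2 and 3 were high. The log2 fold change of -1.06 (SE 0.40) had an edgeR adjusted p of 0.158 over all pairs and 0.00873 without pair 1, and it was the only family called without that pair, when 3.98% of all features were called. It was not called without pair 2 or without pair 3.

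Copia-11 and Copia-13 are the largest groups of related names under the Gypsy? label. Of the 11 Copia-11 terminal repeats 9 were tested, with log2 fold changes between -0.75 and 0.28 and none called. Copia-11B_DR-LTR held the most counts under the Gypsy? label. It averaged 32.0 ± 9.91 CPM with the FZNF MO and 29.6 ± 6.85 CPM with the scrambled MO (SD, n = 3 each). Its log2 ratios were -0.12, 0.21 and 0.19 in pairs 1, 2 and 3 (log2 fold change 0.09, SE 0.16, edgeR adjusted p = 0.797). The 5 tested Copia-13 terminal repeats, which share the stretch printed above, had log2 fold changes between -0.92 and 1.18, with a median of 0.74. The 5 tested internal parts of Copia-13 lay between -0.18 and 0.68, with a median of 0.22. None of these was called, and none had an unadjusted p under 0.05 in edgeR. LTR1_DR, which carries the same stretch, had a log2 fold change of 0.13 (SE 0.31). Pair 1 went against the positive median in the Copia-13 terminal repeats, where the median log2 ratios were -0.75, 0.72 and 0.66 in pairs 1, 2 and 3. Copia-13_DR-LTR itself held 23, 21 and 32 counts with the FZNF MO and 36, 3 and 9 counts with the scrambled MO, so its log2 fold change of 1.18 (SE 0.86) rested on the low counts of scrambled MO replicates 2 and 3 and was 2.38, 0.42 and 0.78 without pair 1, 2 and 3. Copia-13_DR-I averaged 17.8 ± 1.596 CPM with the FZNF MO and 20.2 ± 2.17 CPM with the scrambled MO (SD, n = 3 each; log2 fold change -0.18, SE 0.19).

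**Figure D3:**
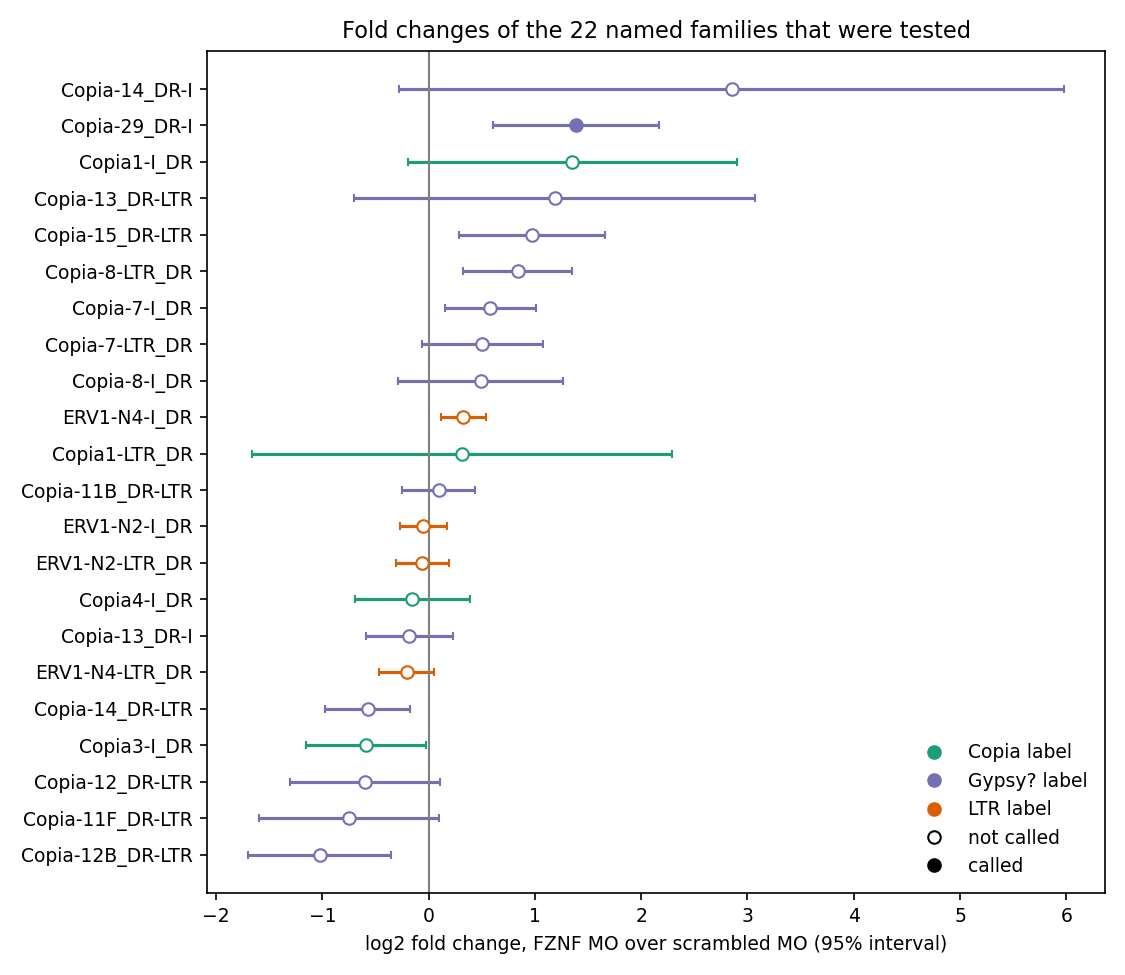
Log2 fold change (FZNF MO over scrambled MO, horizontal axis) of the 22 named families that were tested, with 95% intervals from edgeR's quasi-likelihood fit, colored by superfamily label. The filled point is the called family, Copia-29_DR-I at 1.39, and the low-count families Copia-14_DR-I, Copia1-LTR_DR and Copia-13_DR-LTR have the widest intervals.

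The families labelled Copia proper were few and held few counts in these embryos. Together they took 0.00243% ± 0.000178 of all counts with the FZNF MO and 0.00270% ± 0.000183 with the scrambled MO (SD, n = 3 each). The shares were 0.00252%, 0.00222% and 0.00254% with the FZNF MO, against 0.00260%, 0.00291% and 0.00260% with the scrambled MO. They were lower with the FZNF MO in 3 of 3 pairs, by little in pairs 1 and 3, and the difference was not tested. Copia4-I_DR had 12.5, 8.12 and 17.4 CPM with the FZNF MO and 10.96, 14.7 and 15.4 CPM with the scrambled MO. The groups overlapped fully (log2 fold change -0.15, SE 0.25). Copia3-I_DR had 8.30, 11.7 and 4.20 CPM with the FZNF MO and 12.4, 12.7 and 9.23 CPM with the scrambled MO. It was lower with the FZNF MO in 3 of 3 pairs with overlapping groups (log2 fold change -0.59, SE 0.26, edgeR adjusted p = 0.233). Copia1-I_DR had the opposite sign at 31, 27 and 41 counts with the FZNF MO and 13, 26 and 5 counts with the scrambled MO, did not overlap in CPM and did not pass the test (log2 fold change 1.35, SE 0.71, edgeR adjusted p = 0.322). The scrambled MO libraries of Copia1-I_DR alone would not have passed the count filter, so its lack of overlap is no support for a rise. Without pair 3 the log2 fold change was 0.65 for Copia1-I_DR and -0.33 for Copia3-I_DR. Copia1-LTR_DR held 33, 3 and 10 counts with the FZNF MO and 10, 8 and 9 counts with the scrambled MO. The 3 members that were not tested, Copia3-LTR_DR, Copia5-I_DR and Copia5-LTR_DR, held between 16 and 35 counts in total.

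The bare LTR label was dominated by ERV1-N4, a nonautonomous element named after endogenous retroviruses. Both its parts together made up between 70.8% and 75.5% of the counts of all 104 families with the FZNF MO, and between 70.3% and 72.3% with the scrambled MO. ERV1-N4-I_DR, the internal part, had 43223, 40928 and 30281 counts with the FZNF MO, and 27516, 34796 and 29664 counts with the scrambled MO. In CPM these were 2085, 2557 and 1818 with the FZNF MO and 1579, 1828 and 1699.9 with the scrambled MO, so the FZNF MO library was the higher of each pair, by little in pair 3, and the groups overlapped only through FZNF MO replicate 3 and scrambled MO replicate 2. The log2 fold change was 0.33 (SE 0.10, edgeR adjusted p = 0.0755) over all pairs. Without pair 1, 2 or 3 it was 0.29, 0.26 and 0.46 with an edgeR adjusted p of 0.193, 0.652 and 0.00123, and 12% of all features were called without pair 3. It was also called without the count filter, a fit in which 7.47% of all features were called. The terminal repeat, ERV1-N4-LTR_DR, had 489, 794 and 807 CPM with the FZNF MO and 695, 937 and 738 CPM with the scrambled MO. It was lower with the FZNF MO in pairs 1 and 2 and higher in pair 3 (log2 fold change -0.21, SE 0.12, edgeR adjusted p = 0.380). Without pair 1, 2 or 3 its log2 fold change was -0.05, -0.18 and -0.36 with an edgeR adjusted p of 0.915, 0.823 and 0.0243, so that among these fits it too was called only without pair 3.

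The ratio of the parts of ERV1-N4 differed between the groups in some pairs. Each terminal repeat count was matched by 4.26, 3.22 and 2.25 internal counts with the FZNF MO, and by 2.27, 1.95 and 2.30 internal counts with the scrambled MO. The ratio was higher with the FZNF MO in pairs 1 and 2 and about equal in pair 3, whose libraries were collected on 17 May and those of pairs 1 and 2 on 12 May; the part of the collection day in this was not tested. ERV1-N2, the next element by counts, showed no such shift: its ratio was 1.51, 1.76 and 1.18 with the FZNF MO and 1.52, 1.48 and 1.37 with the scrambled MO, and its parts had log2 fold changes of -0.05 (SE 0.10) and -0.06 (SE 0.11).

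Over the 15 elements with both parts tested, the fold change of the internal part was above that of the terminal repeat in 10 and below it in 5. The largest differences, 3.42 for Copia-14 and 1.90 for Copia-16 on the log2 scale, came from internal parts with few or no counts in the scrambled MO libraries, which passed the count filter through the FZNF MO libraries, so the tally is given as a description. Among the 8 elements with a mean count of at least 50 in both parts, a limit applied here after the data were seen, it was above in 6 and below in 2. The 6 differences ran from 0.0095 for ERV1-N2, with 0.076 for Copia-7, to 0.533 for ERV1-N4. The 2 below were -0.347 for Copia-8 and -0.200 for LTR-11. Both parts had positive fold changes in 7 elements and negative ones in 1. The ratio of internal to terminal counts was raised in all 3 pairs for 2 elements, Copia-16 and Copia-26, and lowered in all 3 pairs for 3 elements, Copia-13E, Copia-8 and Copia2. At that same limit, 15 internal parts had a median log2 fold change of 0.22 and 31 terminal repeats a median of 0.05. The difference between the parts was not tested.

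**Figure D4:**
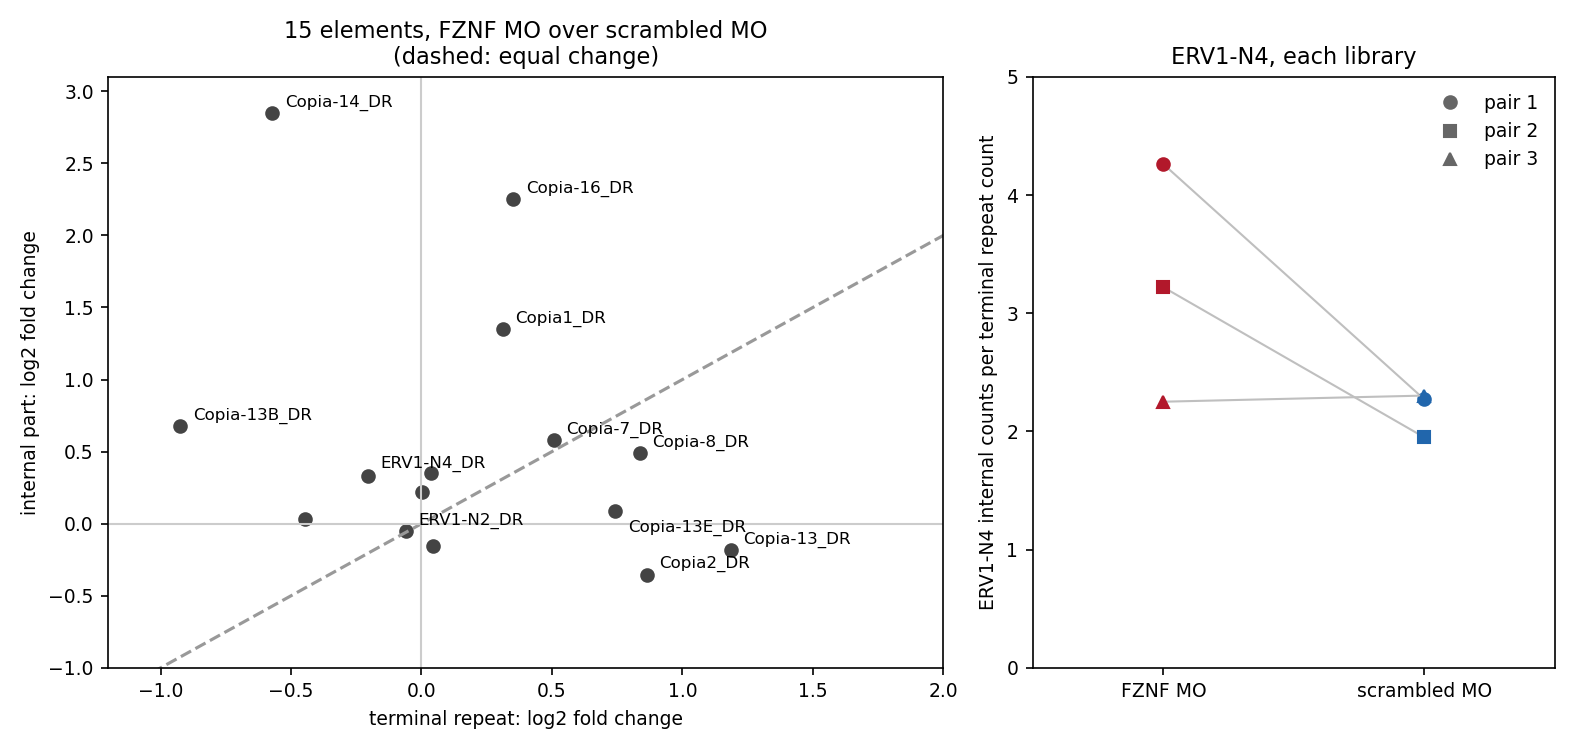
Left, log2 fold change (FZNF MO over scrambled MO) of the internal part (vertical axis) against that of the terminal repeat (horizontal axis) for 15 elements, with a dashed line where both changed equally. Right, counts of the ERV1-N4 internal part per count of its terminal repeat in each library (vertical axis from 0), 4.26, 3.22 and 2.25 with the FZNF MO and 2.27, 1.95 and 2.30 with the scrambled MO in pairs 1, 2 and 3.

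Taken as a share of each library, the 104 families held 0.344%, 0.442% and 0.369% of counts with the FZNF MO, against 0.3201%, 0.388% and 0.340% with the scrambled MO. Each FZNF MO library held the larger share of its pair. The group means, 0.385% ± 0.0510 with the FZNF MO and 0.349% ± 0.0346 with the scrambled MO (SD, n = 3 each), differed by less than the SD of the FZNF MO libraries. That SD is a spread between pairs and does not measure the spread of the differences within pairs. The difference in share was not tested. Leaving out ERV1-N4 and ERV1-N2, the rest held 0.0638% ± 0.0118 with the FZNF MO and 0.0604% ± 0.00652 with the scrambled MO (SD, n = 3 each), higher in 2 of 3 pairs. The pairs also differed in the median family, whose log2 ratio was -0.07, 0.13 and 0.17 in pairs 1, 2 and 3. That order was not particular to these families, since the medians over all TE families tested were -0.06, 0.04 and 0.14. Over the LTR families of other superfamilies they were 0.19, 0.19 and 0.36.

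Genes known in vertebrates for silencing LTR elements were examined in the same fit, and 13 of the 21 on the list matched a single symbol. Not matched, and so not examined, were setdb1b, cbx1a, cbx3a, suv39h1a, suv39h1b, dnmt3aa, dnmt3ab and dnmt3bb.1. Of the 13 matched genes, 1 rose and 0 fell in edgeR, where 3.27% of all features tested were called higher and 2.18% lower. At an unadjusted p under 0.05 in edgeR, 3 were higher and 2 lower, against 10.4% and 9.24% of all features. The lower ones were cbx5 (log2 fold change -0.31, edgeR adjusted p = 0.154) and mphosph8 (log2 fold change -0.28, edgeR adjusted p = 0.159), and neither was called. The gene that rose was trim33 (ENSDARG00000016181), which encodes a chromatin-binding ubiquitin ligase of the TRIM24, TRIM28 and TRIM33 family. It had 213, 223 and 175 CPM with the FZNF MO, and 125, 134 and 141 CPM with the scrambled MO, without overlap (log2 fold change 0.61, SE 0.12, edgeR adjusted p = 0.0123). The gene uhrf1 (ENSDARG00000103409), whose product recruits the maintenance DNA methyltransferase to replicated DNA, had 586, 383 and 328 CPM with the FZNF MO and 363, 266 and 338 CPM with the scrambled MO. Its groups overlapped and it did not pass the test (log2 fold change 0.39, SE 0.13, edgeR adjusted p = 0.117). The remaining gene higher at an unadjusted p under 0.05 was atrx (log2 fold change 0.37, edgeR adjusted p = 0.132), which was not called.

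The libraries held between 16306069 and 20567549 counts. Markers of shield-stage tissues were all detected, and 3 of 19 were called, where 5.45% of all features were: gata5 (endoderm and heart) was higher with the FZNF MO at a log2 fold change of 0.56 (edgeR adjusted p = 0.0345), while foxa2 (floor plate, notochord and endoderm) at -0.78 (adjusted p = 0.0353) and tbx6 (paraxial mesoderm) at -2.10 (adjusted p = 0.00473) were lower. Other markers of these tissues were not called, with log2 fold changes of 0.26 for gsc, 0.14 for chrd, 0.22 for tbxta, 0.29 for tbx16 and -0.13 for sox32. FZNF MO replicate 1 was the highest of all libraries for gsc, chrd, tbxta, tbx16 and gata5, at 75.4, 425, 847, 626 and 133 CPM. For tbx6 it was the lowest, at 1.25 CPM, and for foxa2 it was not the highest. The marker levels ranged from 0.312 to 4111 CPM, and none of the 4 markers of primordial germ cells was called in edgeR. The part of these differences between pools in the values of the LTR families was not tested.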

How the data were processed

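RNA from pools of whole embryos was sequenced as strand-specific poly(A) libraries. Per the labels and the study's methods, the authors ran FastQC 0.11.9, aligned reads to GRCz11 by STAR 2.7.5a with multimapping reads retained, and tallied them by TEcount in its multimapper mode; the deposited values are raw counts per gene, FZNF model or repeat family. TEcount's strand option was not given in the sources used here, nor was the release of the Ensembl annotation. Counts are not per length, so levels of different families were not compared as expression.

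All 35218 features were fitted together in edgeR 4.0.16 (R 4.3.3): filterByExpr by condition, TMM scaling, and the quasi-likelihood test with replicate number (pair of injections) and condition as terms, with Benjamini-Hochberg adjustment over the 17804 features that passed. Calls used the thresholds of the study, an adjusted p under 0.05 and a log2 fold change of at least 0.32 either way. Standard errors were derived from the fold change and the F statistic, and log2 ratios of pairs from log2 CPM (prior count 2). The pairing comes from the study's methods, which repeated each pair of injections in triplicate; deviations from the group means correlated at 0.451, 0.327 and 0.244 within pairs and at -0.315 to 0.0583 between libraries of different pairs. No 2 libraries of the same group agreed within sampling noise (the smallest chi-square per degree of freedom was 22.2). Libraries are pools of embryos, so p-values measure variation over 3 pairs, not between embryos. The test was checked on simulated counts.

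Named families were those called; the 4 of highest mean CPM per label; the 5 largest rises and 5 largest falls with the Copia label, and the 3 and 3 with the other labels together, where the mean count reached 50 and all 3 pairs had the same sign; and the other part of each. Of 24 named, 22 were tested. Silencing genes were given per library when called or among the 2 of smallest p, with symbols matched regardless of case. Those higher or lower at an unadjusted p under 0.05 in edgeR were named as well. The families, lists and rules were chosen with earlier results of these data known. Alternatives were the fit without the block or with collection day (12 or 17 May) in place of the block, RLE or Ensembl-gene TMM factors, DESeq2 1.42.0, no count filter beyond 10 counts in total, a filter of 50 counts in 3 libraries, no fold threshold, and each pair left out. Sequences were copied from the study's supplementary lists of motif matches, put on the consensus strand; these lists are shortened, so no match was counted.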

Additional observations from a re-analysis of the deposited data

How the results depend on the processing

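The number of families called higher, 1 with the replicate block, was 0 without the block and 0 with collection day as the block, settings under which 0.809% and 0.736% of all features were called. It was 2 of 79 with DESeq2, 3 of 104 without the count filter and between 0 and 3 with a pair left out. DESeq2 called 7.41% of all features, and the fit without the count filter called 7.47% of 22984 features. The number called lower, 0 with the block, was 1 without the count filter and between 0 and 3 with a pair left out. The share of all features called was 3.98%, 0.889% and 12% without pairs 1, 2 and 3. The median log2 fold change of the families was between 0.0357 and 0.190 with a pair left out, the highest without pair 1. Among the 22 named families the block's removal changed no call but that of Copia-29_DR-I, which RLE factors, TMM factors from Ensembl genes, DESeq2 and both count filters kept. Direction changed only where a pair was left out: Copia4-I_DR ranged from -0.326 to 0.193 and ERV1-N2-LTR_DR from -0.157 to 0.0414, each positive without pair 2. The families called without pair 3 were Copia-12B_DR-LTR, Copia-14_DR-LTR and ERV1-N4-LTR_DR (lower) and Copia-14_DR-I, Copia-8-LTR_DR and ERV1-N4-I_DR (higher); Copia-14_DR-I then had 0 counts in both scrambled MO libraries, so its fitted fold is no bound. The causes of these differences were not tested. Depth limited the low-count families: 25 of the 104 fell under the count filter, and intervals reached a median of 0.71 (log2) to either side.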
